A study of Homo sapiens with 6 samples.

Results

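The genes followed here are 9 genes of the class I antigen presentation pathway, namely HLA-B, HLA-C, HLA-E, HLA-F, B2M, TAP1, TAP2, TAPBP and NLRC5. They were taken with every array probe whose target transcript belongs to one of them, which gave 15 of the 50599 probes measured. Signals come from MDA-MB-231, a human triple-negative breast cancer cell line, which received a precursor of hsa-miR-205-5p, one of hsa-miR-214-3p, or scrambled miRNA as negative control. All groups shared the same line, medium and reverse transfection, and the series places RNA collection 72 h after it. Each group had 2 Agilent 1-colour arrays, so 6 arrays were compared. The labels call the arrays of a group replicates without saying that they came from separate cultures, so p-values measure only the spread between these samples, which may be technical. A single cell line grown alone holds no lymphocytes that could read the presented peptides, and only RNA was measured.

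Class I molecules show cytotoxic T cells and natural killer cells a sample of the peptides made inside a cell. Proteins are cut by the proteasome, the transporter built from TAP1 and TAP2 moves the fragments into the endoplasmic reticulum, and tapasin, the product of TAPBP, holds the empty class I molecule next to the transporter while it is loaded. Each class I molecule pairs a heavy chain, such as those of HLA-B, HLA-C, HLA-E or HLA-F, with beta-2 microglobulin from B2M. NLRC5 is a transcriptional activator of many class I genes, and interferons raise the whole pathway, in part through the transcription factor IRF1. In tumours a fall of this machinery is a known way of escaping T cells.

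The transfected miRNAs have different seeds, the bases at positions 2 to 8 that pair with target transcripts and that are in capitals here. The mature sequences are those of RefSeq for GRCh38.p14, with hsa-miR-205-5p at chr1:209432166-209432187 on the plus strand and hsa-miR-214-3p at chr1:172138816-172138837 on the minus strand.
hsa-miR-205-5p: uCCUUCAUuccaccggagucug
hsa-miR-214-3p: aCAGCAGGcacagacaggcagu
Target sites in the 3′ ends of these transcripts were not analysed here.

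Of the 9 genes, 7 lie in the major histocompatibility complex on chromosome 6, in the order HLA-F (chr6:29723434-29738532), HLA-E (chr6:30489509-30494194), HLA-C (chr6:31268749-31272092), HLA-B (chr6:31353875-31357179), TAP2 (chr6:32821831-32838739), TAP1 (chr6:32845209-32853704) and TAPBP (chr6:33299694-33314078). B2M is at chr15:44711517-44718145 and NLRC5 at chr16:56989557-57083520, all in GRCh38.p14. Promoter entries, 250 bases before to 50 after a start, were at hand for 7 of the genes. The core of the interferon-stimulated response element, GAAA followed after any 2 bases by GAAA on either strand, occurred in a promoter of 5 of these genes, for TAP1 in 1 of its 2 listed promoters. Counted by promoter, 3.57% of all 35116 hold it. The 30-base stretches that hold the motif are given 5′ to 3′ on each gene's own strand, with the motif in capitals and overlapping matches run together.
HLA-F: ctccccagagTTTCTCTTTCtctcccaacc
B2M: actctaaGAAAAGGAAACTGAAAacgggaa
TAP1: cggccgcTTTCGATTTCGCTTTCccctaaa
TAP2: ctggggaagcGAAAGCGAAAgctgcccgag
TAPBP: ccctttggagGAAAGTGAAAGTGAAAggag
The stretches lie at chr6:29723268-29723297, plus strand, for HLA-F, chr15:44711366-44711395, plus strand, for B2M, chr6:32853816-32853845, minus strand, for TAP1, chr6:32838778-32838807, minus strand, for TAP2 and chr6:33314079-33314108, minus strand, for TAPBP. HLA-B and HLA-C had no match in this window. A match describes letters, not a site in use.

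On each array 58717 spots were not controls, and between 35.4% and 42.2% of them were well above background, with 0 saturated. Levels are given as normalized log2 signal, the log2 of the deposited processed intensity minus the 75th percentile of its array, so that 0 is that percentile. Tests covered the 18464 kept probes, those that at least 1 group showed well above background on each of its arrays, and 13 of these belong to the 9 genes, with 1 or more for each gene. Probes were called changed at 2-fold or more when limma's fit to all 6 arrays gave a p under 0.05 after Benjamini-Hochberg adjustment over the kept probes. The scrambled arrays lay further apart than the arrays of the other groups, with a root mean square difference of 0.67 on the log2 scale over kept probes, against 0.51 for miR-205-5p and 0.34 for miR-214-3p. Scrambled replicate 2 lay closer to both miR-214-3p arrays, at 0.58 and 0.63, than to the other scrambled array. The mesenchymal markers VIM, CD44 and CAV1 were well above background on all 6 arrays, and ESR1 and PGR on none, as is known of this line. EGFR and FN1, also listed here as present in the line, were above background on all arrays, and SPARC on none. ERBB2, EPCAM, CDH1 and KRT8, listed as low or absent, were above it on all, with mean levels of 4.31, 1.41, -0.61 and 7.63. The labels name only the line, and these marker lists were chosen here. EPCAM and CDH1 rose with miR-205-5p, by 2.40 and 1.96 on the log2 scale (limma, adjusted p = 0.0088 and 0.0080). Among markers of leukocytes and endothelium, CD14 and CD68 were above background on all arrays, PTPRC and PECAM1 on some, and CD3E, ITGAM and VWF on none.

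HLA-F, a non-classical heavy chain recognised by receptors of natural killer cells, was the heavy chain gene whose probes were called lower with miR-205-5p. Its brighter probe, A_33_P3379939, read 7.58 and 7.70 on the scrambled arrays, 7.54 and 7.46 with miR-214-3p, and 6.19 and 6.15 with miR-205-5p. Both miR-205-5p arrays thus lay below all 4 others. The signal fell by 1.46 on the log2 scale, or 2.76-fold (SE 0.15, limma adjusted p = 0.0085), and the difference from miR-214-3p was -1.33 (adjusted p = 0.0052). With miR-214-3p the difference from the scrambled control was -0.13, with a 95% interval of -0.52 to 0.25 (adjusted p = 0.64). Since RNA of whole cultures was measured, fewer cells carrying a transcript and less of it per cell cannot be told apart. On the scrambled arrays the brighter HLA-F probe averaged 7.64, beside 7.64 for B2M, 5.96 for HLA-E, 4.57 for HLA-C and 3.26 for the brighter HLA-B probe. The other HLA-F probe averaged 0.29. Probe sequences were not analysed, so whether the brighter probe also reads other heavy chain genes was not tested.

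A dimmer HLA-F probe, A_33_P3379967, designed on another transcript of the gene, read 0.46 and 0.11 on the scrambled arrays, -0.17 and -0.51 with miR-214-3p and -0.62 and -1.07 with miR-205-5p. The 3 groups did not overlap on this probe. With miR-205-5p it fell by 1.13 (limma, adjusted p = 0.034), a call kept in 7 of 16 alternative settings, and with normexp background correction the difference was -0.34 (adjusted p = 0.115). Normexp adds an offset of 50 to the signal before log2, which shrinks log2 differences of dim probes. Raw signals of this probe were 69.29 and 62.55 on the scrambled arrays and 27.05 and 16.76 with miR-205-5p. The brighter probe kept its call in 15 of 16, and lost it without miR-205-5p replicate 2 (adjusted p = 0.058). The fall against miR-214-3p was kept in 14 of 16 and lost without either miR-214-3p array.

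Of the classical heavy chains, HLA-B and HLA-C present peptides to cytotoxic T cells, and none of their probes was called. HLA-C read 4.45 and 4.69 on the scrambled arrays, 3.94 and 3.60 with miR-214-3p and 4.92 and 4.57 with miR-205-5p. The miR-214-3p arrays lay below the others. Their difference from the scrambled control was -0.80 (95% interval -1.35 to -0.25, limma adjusted p = 0.12), while the difference between the precursors, 0.98 higher with miR-205-5p, had an adjusted p of 0.026 and fell just short of 2-fold at 1.97-fold. Over the alternatives the latter ran from 0.73 to 1.15 and its adjusted p from 0.012 to 0.163, above 0.05 with normexp, median scaling, no filter and on leaving out any array of either precursor.

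For HLA-B, the brighter probe gave 3.28 and 3.24 on the scrambled arrays, 2.93 and 3.13 with miR-214-3p, and 2.77 and 3.76 with miR-205-5p. The miR-205-5p arrays spanned all the others, and the difference from the control was 0.00 (95% interval -0.85 to 0.85). The dimmer HLA-B probe gave 3.31 and 2.85, 2.83 and 2.54, and 3.00 and 2.94 on the arrays in that order. Its differences from the control were -0.39 with miR-214-3p and -0.11 with miR-205-5p (limma, adjusted p = 0.35 and 0.75).

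HLA-E, which binds peptides from the leader sequences of other class I chains and engages an inhibitory receptor of natural killer cells, spanned the narrowest range over the 6 arrays among the heavy chain probes. It read 5.91 and 5.999 on the scrambled arrays, 6.21 and 6.33 with miR-214-3p and 5.83 and 5.91 with miR-205-5p. The miR-214-3p arrays were the highest, by 0.32 over the control (95% interval -0.07 to 0.70, limma adjusted p = 0.29). With miR-205-5p the difference was -0.08 (95% interval -0.47 to 0.30). Heavy chain genes resemble each other closely in sequence, and the probe sequences were not analysed here, so signal shared between them remains uncertain.

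B2M, the light chain common to class I molecules, was printed at 10 spots per array. It read 7.15 and 8.13 on the scrambled arrays, 7.63 and 7.62 with miR-214-3p, and 7.10 and 7.05 with miR-205-5p. The scrambled arrays enclosed those of miR-214-3p, and both miR-205-5p arrays lay just under the lower scrambled one. Spots of the same array differed far less (SD 0.05 to 0.13 on the log2 scale) than the scrambled arrays did (SD 0.69, n = 2). The difference with miR-205-5p was -0.57, with a 95% interval of -1.39 to 0.26 (limma, adjusted p = 0.265). Without scrambled replicate 1 it was -1.06 and called (adjusted p = 0.012), and without scrambled replicate 2 it was -0.08. With miR-214-3p it was -0.01 (95% interval -0.84 to 0.81).

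TAP1 and TAP2 form the peptide transporter, and neither was called in any comparison of the 6 arrays. TAP1 read 5.53 and 5.27 on the scrambled arrays, 5.54 and 5.56 with miR-214-3p, and 6.06 and 6.14 with miR-205-5p. The miR-205-5p arrays were above the other 4, by 0.70 over the control or 1.62-fold, under the 2-fold limit (95% interval 0.28 to 1.12, limma adjusted p = 0.043). Over the alternatives this difference ran from 0.31 to 0.83 and its adjusted p from 0.017 to 0.316, with normexp, median scaling, the 4 arrays compared and leaving out any array but scrambled replicate 1 among those above 0.05.

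TAP2 read 4.99 and 4.81 on the scrambled arrays, 4.45 and 4.53 with miR-214-3p and 5.19 and 5.61 with miR-205-5p. The groups did not overlap, with miR-205-5p the highest and miR-214-3p the lowest. Its differences from the control were 0.50 with miR-205-5p and -0.41 with miR-214-3p (limma, adjusted p = 0.14 and 0.30). Over the alternatives the first ran from 0.11 with normexp to 0.71 and was not called. Between the precursors it differed by 0.91 or 1.88-fold (adjusted p = 0.025), with a range of 0.68 to 1.12 and adjusted p from 0.011 to 0.144, and was called higher with miR-205-5p only without miR-205-5p replicate 1. A further TAP2 probe was not well above background on any array and was not tested.

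TAPBP had 3 probes, and they disagreed. The brightest, A_23_P365719, designed on a different transcript from the other two, read 6.73 and 7.09 on the scrambled arrays, 6.05 and 6.08 with miR-214-3p, and 5.69 and 5.56 with miR-205-5p. On it, miR-205-5p was the lowest group and the scrambled control the highest. With miR-205-5p it fell by 1.29 or 2.44-fold (SE 0.19, limma adjusted p = 0.014), a call kept in 10 of 16 alternatives, and lost without either miR-205-5p or either miR-214-3p array (adjusted p up to 0.076). The mean of the 3 probes gave -0.26 and was not called (adjusted p = 0.25). On the brightest probe the difference with miR-214-3p was -0.85 (adjusted p = 0.080).

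The middle TAPBP probe, A_33_P3325914, read 3.44 and 3.25 on the scrambled arrays, 2.75 and 2.85 with miR-214-3p, and 3.58 and 3.63 with miR-205-5p. Here miR-205-5p was the highest group, with a difference from the control of 0.26 (95% interval -0.14 to 0.66, limma adjusted p = 0.29). The dimmest probe gave a difference of 0.24 (adjusted p = 0.43). With miR-214-3p these probes gave -0.55 and -0.42, so that all 3 TAPBP probes were below 0 in that comparison, none of them called.

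NLRC5 was the gene of the 9 that fell with miR-214-3p. Its probe A_32_P416583 read 0.17 and 0.21 on the scrambled arrays, -1.23 and -0.93 with miR-214-3p, and -0.04 and 0.22 with miR-205-5p. Both miR-214-3p arrays lay about 1 log2 unit below all others. It fell by 1.27 or 2.41-fold (SE 0.19, limma adjusted p = 0.040), and miR-205-5p was higher than miR-214-3p by 1.17 (adjusted p = 0.011). With miR-205-5p the difference from the control was -0.10 (95% interval -0.57 to 0.38). The call was kept in 7 of 16 alternatives, and it was lost when any array but scrambled replicate 2 was left out (adjusted p up to 0.28), settings in which limma called 0 of all 18464 probes with miR-214-3p, against 1107 to 1291 at an unadjusted p under 0.05 with a 2-fold change. With normexp background correction the difference between miR-214-3p and the control was -0.50. Raw signals of this probe were 56.58 and 67.07 on the scrambled arrays and 20.60 and 19.24 with miR-214-3p. These are near or below the normexp offset of 50, which by itself shrinks the log2 difference. The difference between the precursors kept its call in 10 of 16, and under normexp it was 0.48 and not called. A further NLRC5 probe was not well above background on any array and was not tested.

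**Figure D1:**
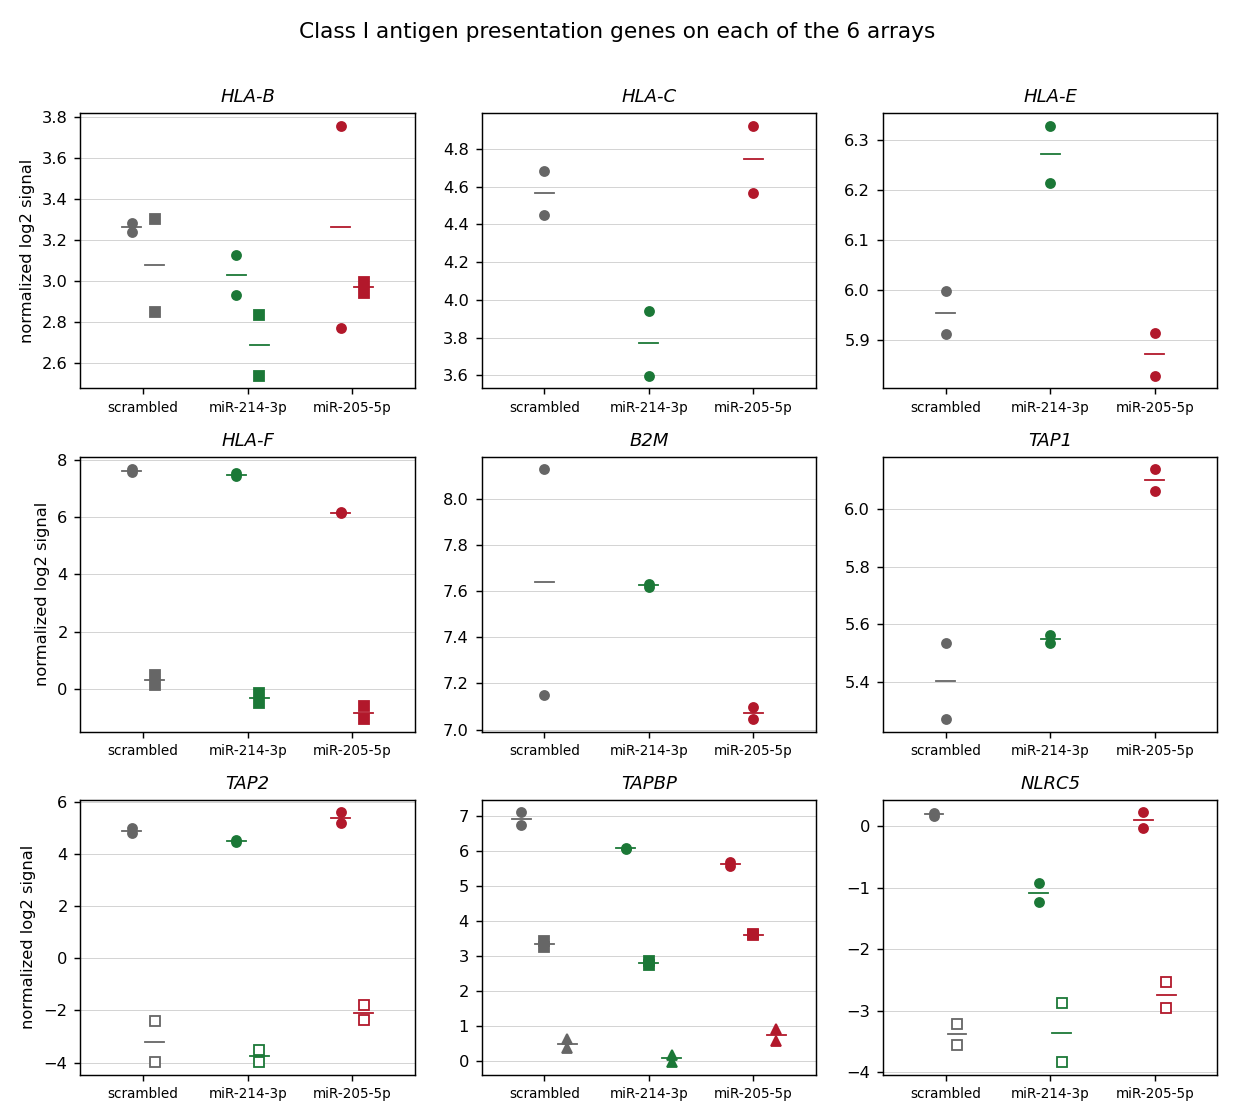
Normalized log2 signal (y axis, each panel with its own scale) of the 15 probes of the 9 genes on each of the 6 arrays, by group on the x axis. Points are arrays, short bars group means, shapes the probes of a gene, and open symbols mark groups in which the probe was not well above background on both arrays. HLA-F and the brightest TAPBP probe are lowest with miR-205-5p, NLRC5 is lowest with miR-214-3p, and the B2M arrays of the scrambled control are 7.15 and 8.13.

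Counted over the 13 tested probes, 3 fell and 0 rose with miR-205-5p, or 23.1%, against 12.2% of all kept probes called in that comparison, 8.05% lower and 4.14% higher. Without the fold limit 4 probes passed, TAP1 being the fourth and often lost under the alternatives, where 19.4% of all kept probes did. The 3 probes stood for 2 genes, HLA-F and TAPBP. The median log2 difference of the 13 probes was -0.08, and that of all kept probes 0.05. On 4 probes both miR-205-5p arrays were below the scrambled arrays and on 3 above them, where 28.7% and 33.6% of all kept probes did so. With miR-214-3p 1 probe fell and 0 rose, or 7.69%, against 2.68% of all kept probes called, 1.68% lower and 0.991% higher, and without the fold limit it was again 1 probe, beside 2.81% of all. The median was -0.41, beside -0.01 over all kept probes, and 11 of the 13 probes were below 0. Taken by the brightest probe of each gene, the median was -0.23, with 7 of the 9 genes below 0. That median was -0.50 with normexp and -0.18 without miR-214-3p replicate 1. On 10 probes both miR-214-3p arrays were below the scrambled arrays and on 2 above them, beside 28.6% and 26.8% of all kept probes.

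Between the precursors, 1 probe was lower with miR-205-5p (HLA-F) and 1 higher (NLRC5), or 15.4%, against 19.9% of all kept probes called, 11.6% lower and 8.37% higher. On 5 probes both miR-205-5p arrays were below the miR-214-3p arrays and on 7 above them, beside 35.2% and 43.2% of all kept probes. Without the fold limit 5 probes passed, beside 31.8% of all, HLA-F lower and those of HLA-C, TAP2, NLRC5 and the middle TAPBP probe higher with miR-205-5p. The 3 comparisons share arrays in pairs and are not independent. Scaling each array to its median in place of the 75th percentile moved the median of all kept probes to -0.335, -0.174 and -0.132 in the order given. At most 42.2% of the spots of an array were well above background, so its median lies among probes near background. Scaling to the median kept the 3 falls with miR-205-5p and that of NLRC5 with miR-214-3p. The NLRC5 difference between the precursors, however, came to 0.95 and was not called. Of all called probes, the share that was lower with miR-205-5p went from 66.0% to 91.3% under that scaling and to 85.0% with normexp. For miR-214-3p it went from 63.0% to 84.7% and 84.4%, but to 40.1% without scrambled replicate 2, when 709 probes were called lower and 1059 higher in place of 311 and 183, and between the precursors from 58.0% to 76.3% and 65.3%.

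**Figure D2:**
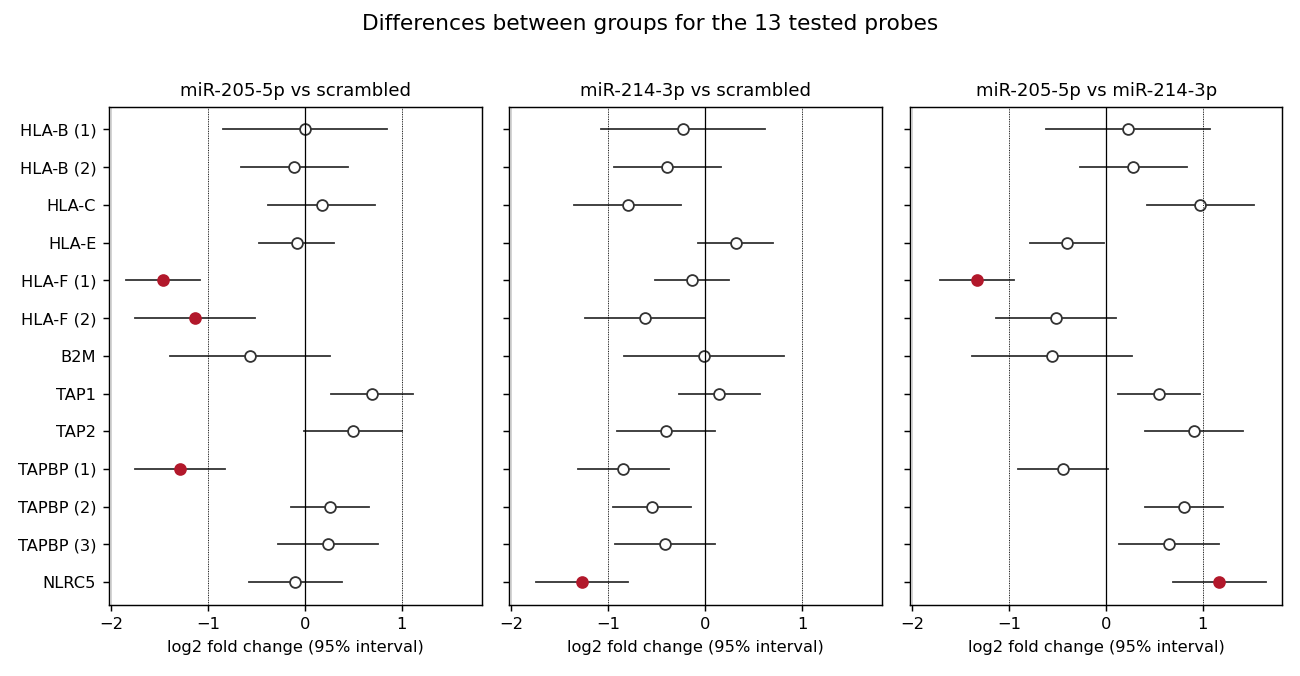
Log2 fold changes (x axis) with 95% intervals of the 13 tested probes (y axis, numbered from the brightest where a gene has several) in the 3 comparisons. Red points were called, and dotted lines mark a 2-fold change. HLA-F lies at -1.46 with miR-205-5p and NLRC5 at -1.27 with miR-214-3p, while the 3 TAPBP probes lie on both sides of 0 with miR-205-5p.

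Other parts of the pathway were followed in lists, each gene by its brightest kept probe. These lists, like the 9 genes, were chosen with earlier results of these data known. Their shares of called genes are therefore descriptions. Over all 11974 such genes, 12.8% were called with miR-205-5p (7.98% lower and 4.78% higher), 3.12% with miR-214-3p (2.03% and 1.09%) and 20.5% between the precursors (11.3% and 9.18%). In the 4 lists that follow limma called 0 genes with miR-214-3p, and 1, UGGT1, passed an unadjusted p under 0.05 with a 2-fold change. Without scrambled replicate 2, however, 3 peptide loading genes, 1 proteasome gene and 1 regulator were called higher with miR-214-3p. With miR-205-5p, calls of the series depended on replicate 2 of that group, since 0 of the 18464 probes were called without it (2773 at an unadjusted p under 0.05 with a 2-fold change).

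The proteasome list held the immunoproteasome subunits, which replace standard subunits under interferon and favour peptides that class I can bind, with their standard counterparts and activators. Of 9 tested genes, 3 fell with miR-205-5p and 0 rose, and the median log2 difference was -0.70, beside 0.08 over all genes. PSMB8, an immunoproteasome subunit, read 2.69 and 3.95 on the scrambled arrays, 3.27 and 3.30 with miR-214-3p, and 0.48 and 0.49 with miR-205-5p. It fell by 2.83 or 7.13-fold with miR-205-5p (SE 0.41, limma adjusted p = 0.013). PSMB9, another such subunit, read 4.46 and 5.32 on the scrambled arrays, 4.99 and 4.92 with miR-214-3p and 2.99 and 2.92 with miR-205-5p, where it fell by 1.93 (adjusted p = 0.015). PSMB5 is the standard subunit that PSMB8 replaces, and it too fell by 2.11 (adjusted p = 0.018), from 6.52 and 7.58 on the scrambled arrays to 4.94 and 4.93. On all 3 genes the miR-205-5p arrays lay well below both other groups, and the scrambled arrays were about 1 log2 unit apart. Against miR-214-3p the differences were -2.80, -2.00 and -2.82. PSMB8 kept its call in 14 of 17 alternatives, and PSMB9 and PSMB5 in 11 each. Leaving out scrambled replicate 2 moved the list's median to -0.10 with 3 genes still lower, and leaving out scrambled replicate 1 moved it to -1.19 with 5. Without either miR-205-5p array, and with no filter on dim probes, 0 genes of the list were called, and 1 was called without either miR-214-3p array or on the 4 arrays compared.

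PSMB9 and TAP1 are neighbours that start 488 bases apart on opposite strands. With miR-205-5p their values had opposite signs, -1.93 for PSMB9 and 0.70 for TAP1, the latter not called. PSMB8 and TAP2 lie beside them in the same stretch of chromosome 6, and TAP2 was 0.50 higher and not called.

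The peptide loading and trimming list counted 12 tested genes, of which 1 fell with miR-205-5p and 0 rose. ERAP2, an aminopeptidase of the endoplasmic reticulum that trims peptides for class I, read 0.74 and 1.49 on the scrambled arrays, 1.90 and 1.93 with miR-214-3p, and -0.25 and -0.54 with miR-205-5p. It fell by 1.50 with miR-205-5p (limma, adjusted p = 0.024), a call kept in 10 of 17 alternatives, over which the difference was as small as -0.79. The ERAP2 difference from miR-214-3p was -2.31 (adjusted p = 0.0058), as small as -1.21 over the alternatives, with the call lost in 2 of 17. Its relative ERAP1 gave 1.05 and was not called, with scrambled arrays at -0.78 and 0.72. The chaperones of the loading complex gave differences of -0.10 for CALR, 0.00 for CANX and 0.28 for PDIA3 with miR-205-5p, none called. That of PDIA3 ran from -0.30 without scrambled replicate 1 to 0.85 without scrambled replicate 2 (adjusted p = 0.042, under 2-fold). UGGT1, which re-tags misfolded glycoproteins for another round of folding, was higher with miR-205-5p than with miR-214-3p by 1.51 (adjusted p = 0.035), a call lost in 7 of 17 alternatives, with a difference of 0.50 under normexp. The list's median with miR-205-5p was 0.33, and -0.06 when arrays were scaled to the median. It was -0.01 without scrambled replicate 1, 0.09 without miR-205-5p replicate 2 and 0.52 without scrambled replicate 2.

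Among 22 tested regulators, 1 fell and 1 rose with miR-205-5p, against 3 and 0 when arrays were scaled to the median, 3 and 2 without scrambled replicate 1, 1 and 0 with normexp or without miR-205-5p replicate 1, and 0 and 0 with no filter or without miR-205-5p replicate 2. IRF1, a transcription factor that interferon induces and that acts on many class I genes, read 2.72 and 3.36 on the scrambled arrays, 3.54 and 3.64 with miR-214-3p, and 1.12 and 0.85 with miR-205-5p. It fell by 2.06 or 4.16-fold with miR-205-5p (SE 0.26, limma adjusted p = 0.010), a call kept in 15 of 17 alternatives, and the difference from miR-214-3p was -2.60. SOCS1, an inhibitor of cytokine signalling through JAK kinases, rose by 1.27 (adjusted p = 0.013), from 0.06 and -0.06 to 1.24 and 1.30. That call was lost in 5 of 17 alternatives, scaling to the median among them. Between the precursors, IRF1 was lower and the interferon receptor chain IFNAR2 higher with miR-205-5p, the differences being -2.60 and 1.23 (adjusted p = 0.0042 and 0.0076). The IRF1 call was kept in 17 of 17 alternatives, and that of IFNAR2 was lost in 4 of 17, with an adjusted p of up to 0.079. STAT3 was not well above background on the miR-205-5p arrays and was at least 2.80-fold lower than with miR-214-3p (limma, adjusted p = 0.019). That call was lost in 6 of 16 alternatives, over which the difference ran from -2.05 to -0.45. Against the control STAT3 was not called.

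**Figure D3:**
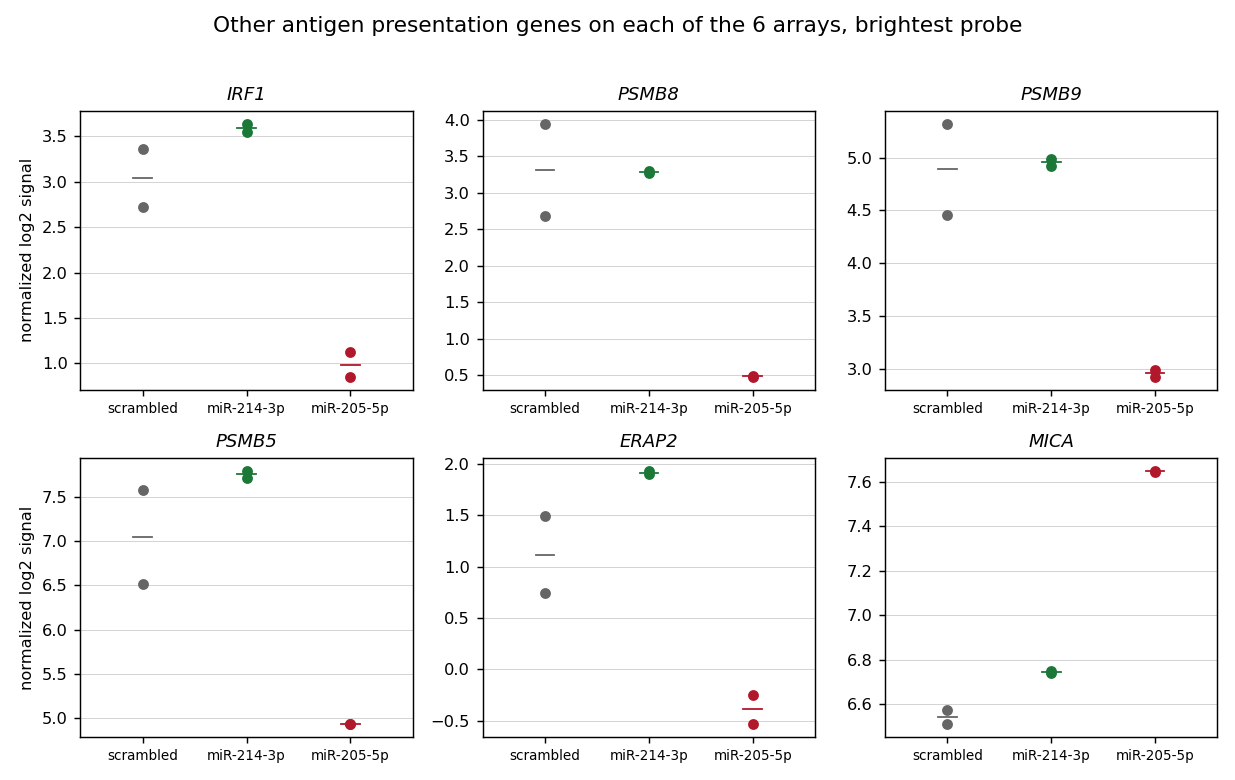
Normalized log2 signal (y axis, each panel with its own scale) of 6 further genes of antigen presentation on each of the 6 arrays, by group, with arrays as points and group means as bars. IRF1, PSMB8, PSMB9, PSMB5 and ERAP2 are lowest with miR-205-5p, and MICA is highest there.

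Relatives of the class I heavy chains include stress ligands such as MICA and MICB, which activate natural killer cells through NKG2D. Of 9 tested genes of this list, 2 rose and 0 fell with miR-205-5p. MICA read 6.57 and 6.51 on the scrambled arrays, 6.74 and 6.75 with miR-214-3p and 7.65 and 7.65 with miR-205-5p, a rise of 1.11 (SE 0.15, limma adjusted p = 0.012). MICB rose by 1.103 on its brightest probe (adjusted p = 0.015), while its dimmer probe fell by 1.28 (adjusted p = 0.017), so that the probes of this gene went opposite ways. Both rises lie close to the 2-fold limit, and MICA kept its call in 6 and MICB in 5 of 17 alternatives. Under scaling to the median, and also after quantile normalization, 0 genes of the list were called higher with miR-205-5p, and under the former 2 were called lower. ULBP2, another NKG2D ligand, read 2.01 and 2.26 on the scrambled arrays, 2.86 and 2.86 with miR-214-3p, and 1.45 and 1.43 with miR-205-5p. Its difference between the precursors was -1.42 (adjusted p = 0.0052), whereas against the control it was -0.69 with miR-205-5p and 0.73 with miR-214-3p, neither called.

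**Figure D4:**
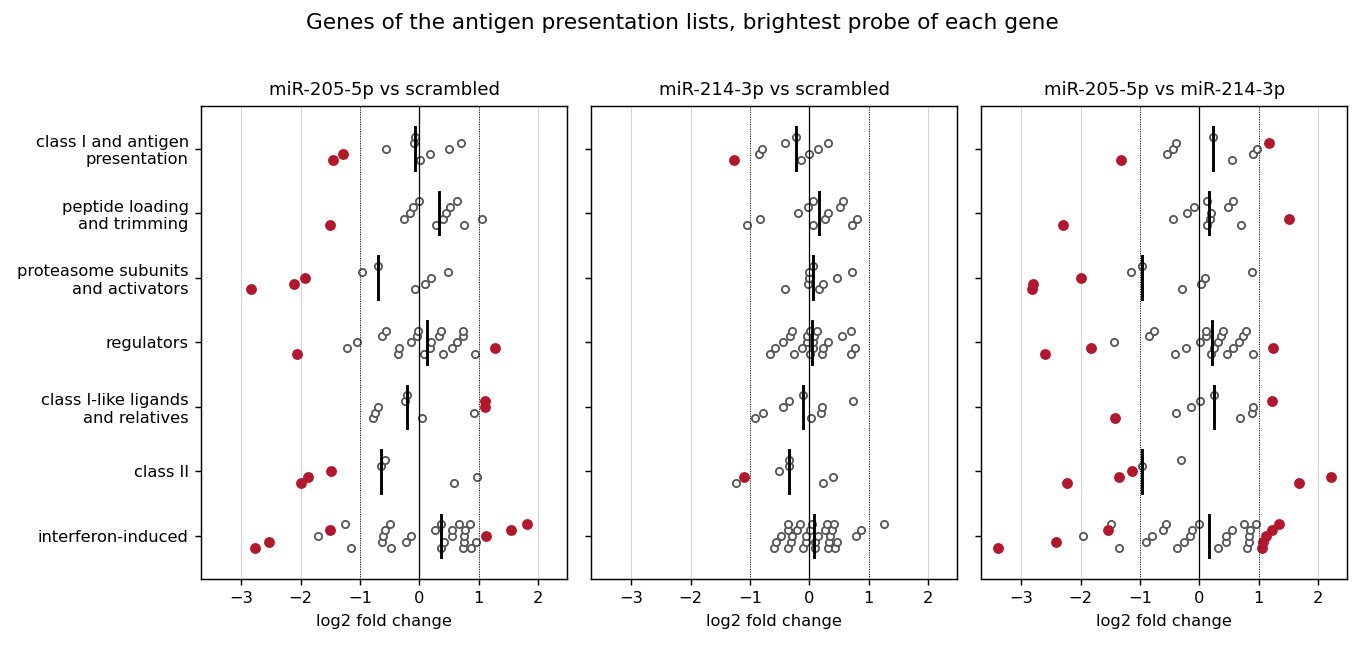
Log2 fold changes (x axis) of the genes of each list (y axis), 1 point per gene by its brightest probe, in the 3 comparisons. Red points were called, black bars are medians and dotted lines mark a 2-fold change. With miR-205-5p, the called genes at or below -1.93 are 3 proteasome genes, IRF1, HLA-DRB1, UBE2L6 and IFIT3, and with miR-214-3p the called genes are NLRC5 and HLA-DMB.

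The response element core was also set beside the measured differences. Of the 5 genes whose promoters held this motif, HLA-F and the brightest TAPBP probe fell with miR-205-5p, while B2M, TAP1 and TAP2 were not called, at -0.57, 0.70 and 0.50. In the promoters of IRF1, PSMB9 and PSMB5 no match was found within the window searched, and PSMB8 and ERAP2 each held 1 match in 1 of their 2 listed promoters. The window began 250 bases before a start. The TAP1 match at chr6:32853816-32853845 lies between the starts of TAP1 and PSMB9, beyond the window of PSMB9.

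B2M served as the reference for likeness, and the genes whose pattern over the 6 arrays was most like it were ATP2C1, BTRC, RPAIN, CHAC2 and COA1, with Pearson correlations of 0.997 to 0.994 among 11964 genes compared. These are descriptions over 6 points in 3 groups. ATP2C1 read 0.58 and 1.77 on the scrambled arrays, 1.198 and 1.07 with miR-214-3p and 0.47 and 0.40 with miR-205-5p, so it shared with B2M the wide gap between the scrambled arrays.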

How the data were processed

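Total RNA of MDA-MB-231 cells (6 samples) was labelled with 1 dye and hybridised to Agilent human expression arrays. The authors deposited the scanner output of Feature Extraction 11.0 (version per the submitters' processing notes), in which processed intensity is linear and background-subtracted. The log2 values that the authors also deposited served as an alternative. Control and outlier spots were left out, spots of a probe averaged, log2 taken and each array's 75th percentile subtracted. Probes were named by matching their transcripts to RefSeq genes of GRCh38.p14, which named 30275 of 50599 probes. The array design uses another build. Promoter and miRNA sequences are those of RefSeq.

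limma 3.58.1 (R 4.3.3) was fitted to all 6 arrays, a fit checked on simulated data, and figures drawn with matplotlib 3.10.9. The methods' t-test ran on the same values at the p and 2-fold limits named for these arrays. Alternatives were normexp (offset 50, on the median signal since no mean signal is given), other scalings, filters and fits, and leaving out each array. The offset shrinks log2 differences of dim probes, so a call of a dim probe lost under normexp does not show that its transcript was unchanged. Text names each of the 9 genes, the called genes of each list up to 4 per comparison by size, a fixed set of partners and the 5 genes most like B2M. The genes and lists were chosen with earlier results of these data known. Some results for single genes are not reported here.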

Additional observations from a re-analysis of the deposited data

How the results depend on the processing

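With 2 arrays per group precision is limited, and dim probes have only bounds where no array of a group was well above background. Of the 13 probes, the 3 called with miR-205-5p became 1 with no filter on dim probes, 1 on only the 4 arrays compared and 0 by the methods' t-test after Benjamini-Hochberg, and ranged from 0 to 3 when an array was left out. The 1 called with miR-214-3p became 0 with normexp, with no filter, on the 4 arrays compared, with the replicate block and by the methods' t-test after Benjamini-Hochberg, and ranged from 0 to 1 when an array was left out. The 2 called between the precursors became 1 with normexp, scaled to the median, with no filter and by the methods' t-test after Benjamini-Hochberg, 5 with no fold limit, and ranged from 0 to 3 when an array was left out. At an unadjusted p the methods' t-test called 2, 1 and 2. Averaging all kept probes of a gene turned MICB with miR-205-5p to -0.0895, MICB between the precursors to -0.276 and OAS2 between the precursors to -0.468. It also took TAPBP between the precursors, not called, from -0.44 to 0.34, and TAPBP with miR-205-5p from -1.29 to -0.263, losing its call. The cause was not tested. Over all probes the calls were 2250, 494 and 3678, against 478, 0 and 1845 with no filter (at an unadjusted p, 2596 with miR-214-3p), 991, 289 and 1394 with normexp, and 858, 0 and 4191 on the 4 arrays compared. The labels do not say that equal replicate numbers pair the arrays, and the differences between replicates 1 and 2 correlated at 0.11, 0.01 and -0.05 between groups. With the replicate block 1970, 0 and 3535 probes were called. With 1 array left out, the calls with miR-205-5p were 1149 and 0 without its replicates 1 and 2, 858 without either miR-214-3p array, and 3865 and 1947 without scrambled replicates 1 and 2. Those with miR-214-3p were 1768 without scrambled replicate 2 and 0 without any other array. Between the precursors they were 845 and 445 without miR-214-3p replicates 1 and 2, 2515 and 2214 without those of miR-205-5p, and 4191 without either scrambled array. Leaving out 1 array assumes that the remaining array of that group has the spread of the other groups. No fit with slide or scan as a block was made, since the arrays share 1 slide and 1 scan.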

Other observations

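Class II molecules show peptides from outside the cell and are made mainly by specialised antigen presenting cells. Of 14 genes listed for this pathway, 7 had a kept probe, and 3 of these fell and 0 rose with miR-205-5p, beside 7.98% of all tested genes lower and 4.78% higher. HLA-DRB1 read 1.39 and 1.95 on the scrambled arrays, 1.85 and 1.95 with miR-214-3p and -0.37 and -0.29 with miR-205-5p, a difference of -2.00 (limma, adjusted p = 0.0091). HLA-DPB1 and HLA-DPA1 also fell, with differences of -1.87 and -1.48 (adjusted p = 0.0080 and 0.018). The HLA-DPA1 call was lost in 6 of 17 alternatives, and those of HLA-DRB1 and HLA-DPB1 in 1 each. Over the alternatives the differences were as small as -1.14 for HLA-DRB1, -1.03 for HLA-DPB1 and -1.13 for HLA-DPA1. None of the listed promoters of these 3 genes held the response element core. The list's 3 falls became 2 with no filter, on the 4 arrays compared, or without miR-205-5p replicate 1 or either miR-214-3p array, and 0 without miR-205-5p replicate 2. HLA-DRA, the partner chain of HLA-DRB1, was not kept. A dimmer probe of HLA-DMA, whose product exchanges peptides on class II, was not well above background on the miR-205-5p arrays, at least 6.43-fold below the control (adjusted p = 0.0084), while its brighter probe gave -0.65 and was not called. HLA-DMB, the partner of HLA-DMA, fell by 1.096 with miR-214-3p (adjusted p = 0.044), to -1.27 and -1.15 from 0.03 and -0.25. That call was lost in 9 of 17 alternatives (adjusted p up to 0.31), and under normexp the difference was -0.37. The gene lay 1.67 higher with miR-205-5p than with miR-214-3p (adjusted p = 0.0045). IFI30, a thiol reductase that opens proteins for class II, read 4.99 and 4.59 on the scrambled arrays, 3.53 and 3.56 with miR-214-3p and 5.40 and 6.11 with miR-205-5p. Its difference between the precursors was 2.21 (adjusted p = 0.0064), and neither difference from the control was called. Of the markers of other cell types, CD14 rose and CD68 fell with miR-205-5p, with log2 differences of 1.14 and -1.05, and PECAM1, not well above background there, was at least 2.255-fold lower. The part of such cells in these results was not tested.

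Among 30 tested interferon-induced genes, 3 fell and 3 rose with miR-205-5p and 0 were called with miR-214-3p in limma's fit, beside 7.98% of all tested genes lower and 4.78% higher with miR-205-5p. With miR-214-3p 1, MX2, passed an unadjusted p under 0.05 with a 2-fold change. Without scrambled replicate 2, 3 were called higher with miR-214-3p. With miR-205-5p, 0 fell and 0 rose without replicate 2 of that group, 1 and 1 with no filter, and 5 and 4 without scrambled replicate 1. UBE2L6, a ubiquitin-conjugating enzyme that attaches ISG15, fell by 2.77 (adjusted p = 0.0083), IFIT3 fell by 2.53 (adjusted p = 0.017) and IFI35 fell by 1.499 (adjusted p = 0.0095). IFIT1 rose by 1.54 (adjusted p = 0.0084) and MX2 by 1.81 (adjusted p = 0.023), though only 1 of its 2 scrambled arrays was well above background. The MX2 call was lost in 7 of 16 alternatives, its difference running from 0.49 under normexp to 2.31 without scrambled replicate 2, and the IFIT3 call was lost in 6 of 17. IFIT2, named after its value was seen as the remaining call, rose by 1.12 (adjusted p = 0.015). IFIT1 and IFIT3, antiviral proteins of the same family, thus went opposite ways, with IFIT1 at 5.80 and 5.85 on the scrambled arrays and 7.46 and 7.28 with miR-205-5p, and IFIT3 at 3.85 and 5.01 and then 2.17 and 1.63. OAS2, an antiviral sensor of double-stranded RNA, was higher with miR-205-5p than with miR-214-3p by 1.34 on its brightest probe (adjusted p = 0.0073). Its dimmer probes gave -1.48 and -1.26 in that comparison, neither called.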
